A study of Mus musculus with 2 samples.

Results

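Interferon-responding T cells were T cells of mouse splenic Treg libraries that carried several transcripts of genes switched on by interferon. They were chosen by their own counts. A cell had at least 500 genes detected, at most 10% mitochondrial counts, at least 2 UMIs (unique molecular identifiers, counts of captured transcripts) of Cd3d, Cd3e and Cd3g together and at most 1 UMI of Cd79a. It also had a sum of at least 4 UMIs over 6 rule genes, Ifit1, Ifit3, Ifit3b, Rsad2, Usp18 and Ifi44. The rule found 916 cells among 12977 T cells past the same gate and 16731 deposited cells. T cells past the gate with a rule gene sum of 0, called other T cells here, numbered 8044, and the 4017 T cells between them had a sum of 1 to 3.

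Droplet-based single-cell RNA sequencing (10x Genomics 3' chemistry) had been done on spleen cells sorted as CD4+FoxP3+. Mice of the control genotype, called +/+, were Foxp3YFP-Cre Kmt2d+/+. Those of the other, called fl/fl, were Foxp3YFP-Cre Kmt2dfl/fl. Mice of both genotypes carried Cre recombinase with yellow fluorescent protein under control of Foxp3, so the control cells also expressed Cre, and recombination was directed to cells that express Foxp3. Kmt2d encodes a methyltransferase of histone H3 lysine 4, and fl marks the loxP-flanked allele. Cells of 3 mice were pooled into 1 library per genotype, and no label ties a cell to a mouse. Mouse age and sex are not given in the sources used here. With 1 library per genotype there is no test of a genotype difference. The values describe 2 libraries, and every interval is a 95% interval for counting error alone.

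Interferon-responding cells numbered 459 of 6484 T cells in the +/+ library and 457 of 6493 in the fl/fl library. Their sequencing was somewhat deeper in fl/fl, with a median of 7134 UMIs per cell against 6106, and they were deeper than the other T cells (5945 and 5393). The libraries shared 15 barcodes, found on 15 +/+ and 12 fl/fl T cells, of which 2 in +/+ and 0 in fl/fl were interferon-responding. Kmt2d itself was at 62.8 CPM (CPM, the summed counts of a gene scaled to a common library total; interval 54.8 to 71.6) in the +/+ responders and at 61.4 (53.9 to 69.7) in those of fl/fl. The labels do not name the floxed exons, and 3' reads outside a deleted part check nothing about the genotype. A few cells carried many transcripts of other cell types. Cells with at least 10 UMIs over 21 neutrophil, monocyte, MHC class II and erythroid genes numbered 11 among the +/+ and 17 among the fl/fl interferon-responding cells. Results are given with them, and part of the values also without them.

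The label was checked against markers. Among the rule genes, Ifit1 had a UMI in 85.4% of +/+ and 74.0% of fl/fl interferon-responding cells, Ifit3 in 85.6% and 75.1%, Usp18 in 75.4% and 77.0%, and Rsad2 in 41.6% and 32.4%. These genes chose the cells, so the shares describe the choice. Isg15, which the rule did not use, had a UMI in 88.5% and 71.1%, against 18.9% of other T cells in each library. Treg markers were found in part of the cells. Ikzf2, which encodes the Treg factor Helios, had a UMI in 73.4% of +/+ and 77.7% of fl/fl interferon-responding cells. Foxp3, the factor that defines Treg cells, had a UMI in 14.8% (11.7 to 18.4) and 12.7% (9.78 to 16.1), or in 6.56% and 3.94% after thinning every cell to 2500 UMIs. In other T cells it was 14.3% and 10.1%, or 7.20% and 4.20% thinned. In B cells, which should lack it, Foxp3 had a UMI in 0.195% of 514 +/+ and 0.157% of 1270 fl/fl cells, at median depths of 5036 and 4465 UMIs. Ikzf2 had a UMI in 0.778% and 2.83% of the same B cells.

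Interferons bind receptors that signal through the JAK kinases to STAT and IRF factors. These enter the nucleus and bind the interferon-stimulated response element (ISRE) in front of their target genes. The targets include enzymes and decoys that act against viruses (the IFIT, OAS and MX families), sensors of foreign nucleic acid, guanylate-binding proteins, and genes such as Usp18, Isg15 and Socs1 that end or tune the response. In the spleen a small part of resting T cells carries such a signature without infection, and in Treg cells interferon is known to alter their suppressive function.

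The core of the ISRE reads TTTCNNTTTC on 1 strand and GAAANNGAAA on the other. Both were searched in the 250 bases before the transcription start of each gene, as listed by RefSeq for GRCm38.p6, counting overlapping matches. The core was in the window of 4 of the 5 rule genes that matched a listed promoter, in 35 of 78 (44.9%) genes with a window among the 98 outside the rule that were at least 2-fold higher in interferon-responding than in other T cells of both libraries, and in 936 of 27025 genes (3.46%) with a window. Stretches around the matches are shown for 5 genes picked among those with a match, of which Ifit1, Ifit3 and Rsad2 are rule genes. Each stretch is written 5' to 3' on the strand of the gene, with the matches in capitals. Ifit1 is shown from chr19:34640755-34640843 (plus strand), Ifit3 from chr19:34583343-34583446 (plus), Rsad2 from chr12:26456533-26456602 (minus), Isg15 from chr4:156200845-156200926 (minus) and Oas3 from chr5:120777695-120777764 (minus).
Ifit1: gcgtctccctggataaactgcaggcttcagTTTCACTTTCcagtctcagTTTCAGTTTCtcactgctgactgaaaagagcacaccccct
Ifit3: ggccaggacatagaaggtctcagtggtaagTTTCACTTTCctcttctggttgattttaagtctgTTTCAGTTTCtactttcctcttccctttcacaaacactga
Rsad2: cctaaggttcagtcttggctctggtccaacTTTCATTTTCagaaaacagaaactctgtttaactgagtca
Isg15: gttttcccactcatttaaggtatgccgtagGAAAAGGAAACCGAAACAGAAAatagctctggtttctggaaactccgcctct
Oas3: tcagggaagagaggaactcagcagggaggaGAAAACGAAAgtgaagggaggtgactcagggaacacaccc
Isg15 holds 3 overlapping matches in 1 run, and Ifit1 and Ifit3 hold 2 matches each. The Ifit3 stretch is identical over all 104 bases to that of Ifit3b, a near copy of Ifit3 on the same chromosome, so reads of these 2 genes may have been split or lost in counting. Ifi44, a rule gene, had no match in its window. Cmpk2 and Oasl2, described below, also had none, and Slfn5 had 1. Among the lists described below, 9 of 10 interferon-inducible GTPase genes and 9 of 12 p200 family genes with a window held the core, as did 10 of 30 antiviral effectors, 7 of 24 PARP, TRIM and nuclear body genes, 2 of 8 feedback genes and 1 of 6 nucleic acid sensors. None of 5 Ly6 and surface genes raised by interferon and none of 11 Treg identity genes held it. A match is a description of the letters and not evidence that a factor binds there.

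The share of T cells that reached the gate was close in the libraries, 7.08% (6.47 to 7.73) in +/+ and 7.04% (6.43 to 7.69) in fl/fl. The distribution of the rule gene sum differed around it. T cells with a sum of at least 1 were 32.7% in +/+ against 43.3% in fl/fl, and those with at least 3 were 9.28% (8.59 to 10.0) and 11.4% (10.6 to 12.2). Above the gate the order turned. At a sum of at least 6 the +/+ share was 4.84% (4.33 to 5.39) and the fl/fl share 3.70% (3.25 to 4.18), and at 8 they were 3.50% and 2.57%. At a sum of at least 12 the shares were 1.85% (1.54 to 2.21) and 1.48% (1.20 to 1.80), whose intervals overlap. At a sum of at least 20 they were close, 0.663% (0.480 to 0.892) and 0.631% (0.454 to 0.856). More fl/fl than +/+ T cells thus carried 1 to 3 rule gene transcripts, and fewer carried 6 or more, with close shares at the highest sums.

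**Figure D1:**
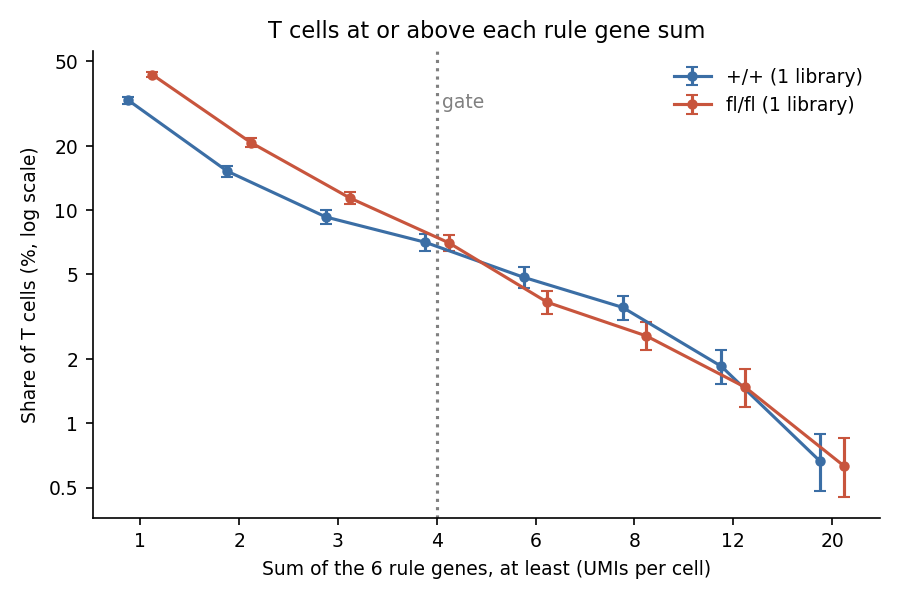
Share of T cells (%, log scale) with at least the number of rule gene UMIs given on the x axis, for the +/+ and fl/fl libraries; bars are 95% exact binomial intervals and the dotted line is the gate at 4. The fl/fl share is higher at sums of 1 to 3, the libraries meet at 4 (7.08% and 7.04%), and the +/+ share is higher at 6 (4.84% and 3.70%).

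At equal depth the order was the same, with overlapping intervals at the higher sums. In T cells thinned to 2500 UMIs, a sum of at least 1 was reached by 19.1% (+/+) and 23.2% (fl/fl), a sum of at least 2 by 7.51% and 7.77%, and a sum of at least 4 by 3.03% (2.63 to 3.48) and 2.40% (2.04 to 2.81). Among the cells with a thinned sum of at least 2, those with at least 6 were 21.1% (17.6 to 25.03) in +/+ and 13.5% (10.6 to 16.8) in fl/fl. Unthinned, the median sum of the interferon-responding cells was 7 in +/+ and 6 in fl/fl, and the highest 67 and 75.

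The rule genes did not differ alike between the libraries. Their levels are a description, since the sum over them chose the cells, and in other T cells they are 0 by the rule. Ifit1, which binds foreign RNA caps, had 409 CPM (388 to 431) in +/+ responders and 285 (269 to 303) in fl/fl responders, a log2 ratio of fl/fl over +/+ of -0.52 (-0.63 to -0.41). Ifit3, its partner, was at 393 and 314 CPM (-0.33), and Ifit3b at 82.9 and 57.3 CPM (-0.53). Rsad2, which encodes viperin, an enzyme that makes a chain-terminating nucleotide, was at 119 and 94.6 CPM (-0.33). Usp18, the protease that removes ISG15 from proteins and blocks the type I receptor, was at 226 (211 to 242) and 211 (197 to 226) CPM, -0.10 (-0.24 to 0.04). Ifi44 went the other way, at 67.1 CPM (58.8 to 76.2) in +/+ and 97.6 (88.1 to 108) in fl/fl, +0.54 (0.30 to 0.78). Summed over the 6 genes, the +/+ cells held 4585 UMIs and the fl/fl cells 4123. The gate depends on this mixture. With Usp18 left out of the sum, 5.91% of +/+ and 4.85% of fl/fl T cells reached 4, and with Ifi44 left out 6.80% and 6.11%.

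Genes outside the rule were compared between the libraries by summed counts. Genes that reached 20 CPM in at least 1 library were taken as measured. A gene was called higher or lower in fl/fl where the ratio was at least 1.5-fold with an interval excluding 1. Of 6081 genes measured in interferon-responding cells, 174 (2.86%) were called higher and 366 (6.02%) lower in fl/fl, and the median log2 ratio of all was -0.06. Scaling by the median of the gene-wise ratios gave 224 higher and 304 lower. Without the cells rich in other-cell genes the numbers were 148 (2.47%) and 372 (6.21%) of 5994, and with the gate and counts taken after thinning 168 (2.76%) and 396 (6.51%) of 6080. In other T cells 74 of 6128 (1.21%) were called higher and 325 (5.3%) lower, with a median of -0.10. Of the 366 genes lower in interferon-responding cells, 192 (52.5%) were also lower in other T cells, which is 59.1% of the 325 there. Of the 174 higher, 39 (22.4%) were also higher in other T cells, 52.7% of the 74.

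Among antiviral effector genes, 13 of 27 measured outside the rule were called lower in the fl/fl interferon-responding cells, beside 6.02% of all genes. None was called higher and 14 were not called, all 27 ratios were below 0, and the median was -0.58. In other T cells the 18 measured genes of the list had a median of 0.08, with 1 called higher (Slfn1) and 1 lower (Apobec3). Of all genes there, 1.21% were called higher and 5.3% lower. The 13 were Slfn5, Oas2, Oas3, Oasl1, Cmpk2, Ifit1bl1, Isg20, Bst2, Ifitm3, Apobec3, Xaf1, Ifi35 and Tor3a. Without the cells rich in other-cell genes the count was again 13 and the median -0.58, and with the gate set on thinned cells it was 11, with 26 of 27 below 0. These lists were assembled with earlier results of these data known.

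Slfn5 (chromosome 11, 82951349 to 82964840, plus strand, in GENCODE's GRCm38 annotation) encodes a schlafen family protein. It was at 415 CPM (394 to 437) in +/+ and 218 (204 to 233) in fl/fl interferon-responding cells, a log2 ratio of -0.93 (-1.05 to -0.80), and at 51.7 and 37.7 CPM in other T cells (-0.46). Bst2 (chromosome 8, 71534255 to 71537456, minus strand) encodes tetherin, which holds budding virus at the cell surface. It was at 715 CPM (687 to 743) and 448 (428 to 470), -0.67 (-0.76 to -0.58), while in other T cells it was at 147 and 162 CPM (0.13). Both genes were therefore lower in the fl/fl cells that respond, and of this pair Slfn5 alone was below 0 in the cells that do not.

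Enzymes within the OAS family make the second messenger that activates RNase L, though not every member has this activity. Oas3 had 97.6 CPM in the +/+ responders against 46.8 in fl/fl, a log2 ratio of -1.06 (-1.33 to -0.80), and other T cells had 10.8 and 9.37 CPM. Oas2 was at 58.0 and 33.2 CPM (-0.81), and Oasl1 at 61.1 and 38.0 CPM (-0.68). Oasl2 was at 111 and 85.1 CPM, a log2 ratio of -0.39 (-0.60 to -0.17) that did not reach 1.5-fold. Cmpk2, a mitochondrial nucleotide kinase next to Rsad2, was at 64.8 and 31.9 CPM (-1.02), and Ifit1bl1, a relative of Ifit1, at 117 and 57.3 CPM (-1.03). Ifitm3, which blocks virus entry, was at 157 and 93.5 CPM (-0.74), or -1.09 without the cells rich in other-cell genes. Isg20, an exonuclease, was at 207 and 120 CPM (-0.78). Rtp4 was at 194 and 134 CPM (-0.54), below the fold, but at 20.04 and 29.4 CPM in other T cells (0.55). Its ratio thus differed between the populations by -1.09 (-1.32 to -0.86).

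Of 8 measured genes that feed back on the response, 4 were called lower (Isg15, Herc6, Ube2l6 and Socs3) and none higher. The share called lower among all genes was 6.02%. The median of the 8 was -0.67, or -0.43 with the gate on thinned cells. The 5 of them measured in other T cells had a median of -0.02. Isg15 (chromosome 4, 156199424 to 156200818, minus strand) encodes a ubiquitin-like protein that is attached to other proteins. It was at 639 CPM (613 to 666) in +/+ and 371 (352 to 390) in fl/fl interferon-responding cells, -0.79 (-0.88 to -0.69), and at 44.0 and 38.4 CPM in other T cells (-0.20). Of the 3 enzymes of its attachment, 2 were called lower. Ube2l6, the conjugating enzyme, was at 76.4 and 44.2 CPM (-0.79), Herc6, the ligase, at 241 and 139 CPM (-0.80), and Uba7, the activating enzyme, at 36.8 and 25.2 CPM (-0.55), short of the fold. Socs3 was also lower in other T cells (-0.68), and with the gate on thinned cells its ratio in interferon-responding cells was 0.03. Socs1, the inhibitor of JAK kinases, was at 95.3 and 104 CPM (0.13).

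Nucleic acid sensors had a median of -0.50, with all 7 measured genes below 0. Called lower were 2, Zbp1 and Sting1, beside 6.02% of all genes. Zbp1, a sensor of Z-form nucleic acid, was at 276 and 176 CPM (-0.65) and in other T cells at 45.1 and 50.4 CPM (0.16). Sting1, the adaptor for cytosolic DNA, was at 62.0 and 28.5 CPM (-1.12) and lower in other T cells by as much, at 63.9 and 30.3 CPM (-1.07). The RNA sensors Ddx58 (RIG-I, -0.49), Ifih1 (MDA5, -0.50) and Dhx58 (LGP2, -0.53) were below 0 but short of the fold.

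The signalling chain above these genes did not differ alike. None of 7 receptor and kinase genes was called either way, and their median was 0.03 (Ifnar1 -0.27, Ifnar2 0.03, Jak1 0.08, Tyk2 -0.53). With the gate on thinned cells all 7 were below 0, with a median of -0.15, and none was called. Among 9 STAT and IRF factors, 1 was called lower and 1 higher, beside 6.02% and 2.86% of all genes. Irf7, the factor that amplifies the response, was called lower, at 183 and 117 CPM (-0.64). Irf8 was called higher, at 43.0 and 74.8 CPM (0.80, or 1.08 without the cells rich in other-cell genes, but 0.20 with the gate on thinned cells). With that thinned gate none of the 9 factors was called either way, Irf7 included. Stat2 was at 111 and 85.3 CPM (-0.38) and Irf9 at 116 and 110 CPM (-0.07). Of the interferon genes themselves, no UMI of Ifna1, Ifna2, Ifna4, Ifna5, Ifnl2 or Ifnl3 was counted in any cell past the filters, and Ifnb1 had 2 UMIs in 7790 +/+ and 6 in 8634 fl/fl cells, none of them in T cells. Ifng was at 29.1 and 35.5 CPM in interferon-responding cells (0.28, -0.10 to 0.67).

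In the other target families most genes were not called. Of all measured genes, 6.02% were called lower and 2.86% higher. Of 26 measured PARP, TRIM and nuclear body genes 3 were called lower (Phf11a, Phf11b and Parp10) and none higher, with 20 below 0 and a median of -0.38 against 0.20 in other T cells. Phf11b was at 247 and 156 CPM (-0.66) and in other T cells at 48.9 and 58.3 CPM (0.25). Of 15 interferon-inducible GTPases, which attack the membranes of intracellular pathogens, 1 was called lower (Gbp9, -0.62), a share near the 6.02% of all genes. Below 0 were 10 of the 15, beside 3567 of all 6081 genes, and the median was -0.26, against 0.28 over the 12 measured in other T cells. Irgm2 (84.0 and 110 CPM, 0.40) and Iigp1 (237 and 272 CPM, 0.20) were above 0. Of 9 measured p200 family genes, which encode DNA-binding proteins, 1 was called lower, and the median was -0.21 against 0.21. That gene was Ifi208 (chromosome 1, 173673675 to 173698395, plus strand), at 237 CPM (222 to 254) in +/+ and 39.1 (33.1 to 45.8) in fl/fl, -2.60 (-2.86 to -2.35). In other T cells Ifi208 was at 40.3 and 17.9 CPM (-1.17). Members of this family are similar in sequence and lie next to each other, so their reads may be divided differently by counting. Of 8 measured Ly6 and surface genes raised by interferon, 2 were called lower, Ly6c1 and Tnfsf10, the death receptor ligand TRAIL (54.9 and 32.1 CPM, -0.77), with a median of -0.21 against -0.13. None of 20 MHC class I presentation genes was called, with a median of -0.11 (B2m -0.09, Tapbp -0.51, Psmb8 -0.33).

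**Figure D2:**
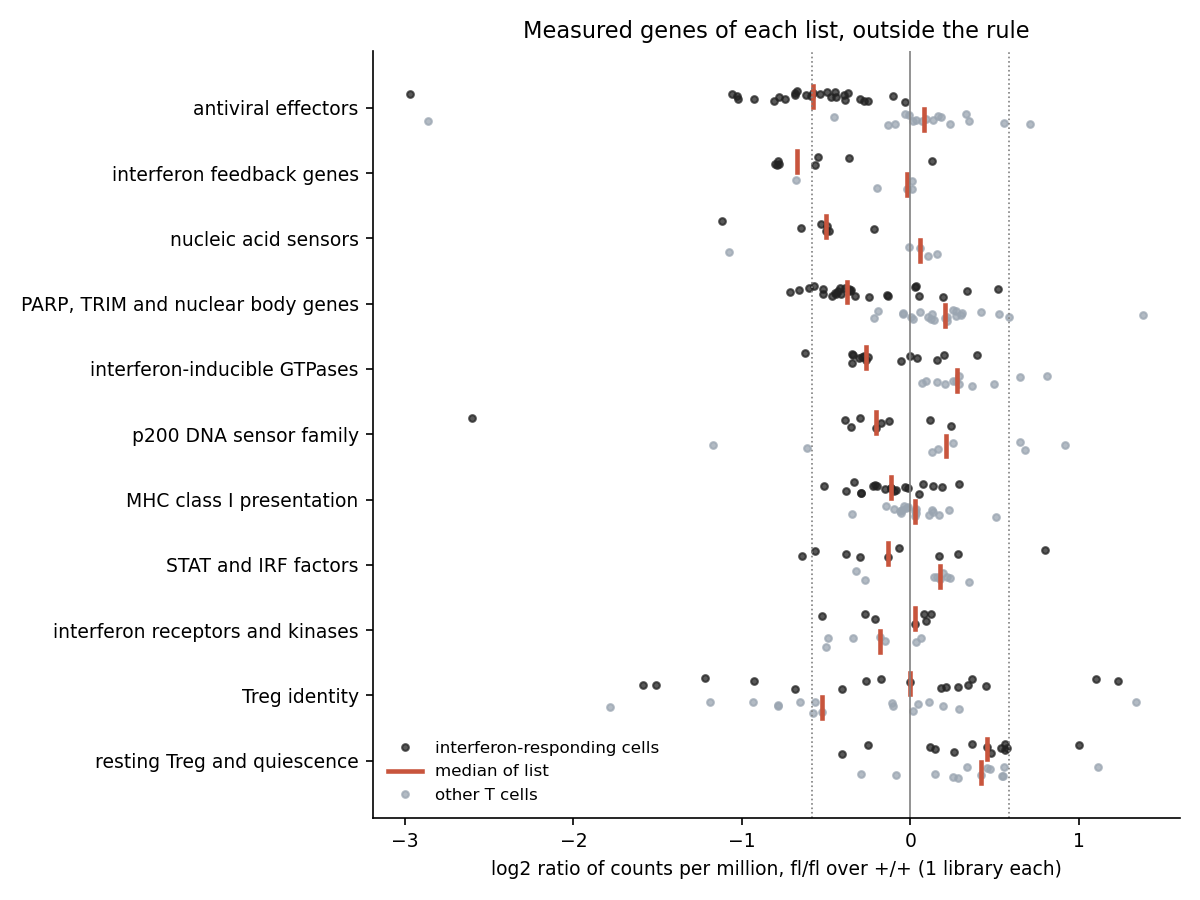
Log2 ratio of CPM, fl/fl over +/+, for each measured gene of 11 lists outside the rule genes, in interferon-responding cells (black) and in other T cells (grey); red bars are list medians and dotted lines mark 1.5-fold. The antiviral effectors lie below 0 in interferon-responding cells (median -0.58) and around 0 in other T cells (0.08), while 11 of 13 resting Treg genes lie above 0 in both.

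Apart from the fixed lists, 89 genes outside the rule were at least 2-fold higher in interferon-responding than in other T cells in both libraries, cells rich in other-cell genes left out. These genes were selected by values of the same cells, so no more than their values is given. In interferon-responding cells 78 of the 89 had a ratio below 0, 28 were called lower (background 6.21%) and 1, Gm4951, higher (2.47%), and the median was -0.47. In other T cells 65 were above 0 and the median was 0.14. Over all cells, 104 of 5795 measured genes (1.79%), rule genes included, were 2-fold higher in both libraries. Just 1 gene (0.0173%) was 2-fold lower in both, Ccl5, which encodes a chemokine of effector T cells. It was at 337 CPM in interferon-responding and 704 CPM in other T cells of +/+, and at 700 and 1606 CPM in fl/fl. The rule used this contrast, and nothing is read from these counts.

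Isg15, Bst2 and Slfn5 rose with the rule gene sum in both libraries and were lower in fl/fl at each sum inside the gate. Cells just outside the gate (sum 3) had 185 CPM of Isg15 in +/+ and 101 in fl/fl, and cells just inside it (sum 4) had 331 (286 to 380) and 144 (124 to 167). Isg15 at a sum of 7 to 11 was at 599 (555 to 645) and 456 (412 to 504) CPM, and at 12 or more at 1054 (991 to 1121) and 722 (668 to 779). The fl/fl level was below the +/+ level in each of these bins, and the intervals did not overlap. Bst2 was at 477 and 322 CPM at a sum of 4 and at 907 (848 to 969) and 569 (521 to 620) CPM at 12 or more. Slfn5 was at 179 and 92.8 CPM at a sum of 4 and at 766 (712 to 824) and 494 (449 to 542) CPM at 12 or more. Rtp4 and Oasl2 followed other courses. Rtp4 was higher in fl/fl at a sum of 0 (29.4 against 20.04 CPM) and lower at 12 or more, at 265 (234 to 299.6) CPM in +/+ and 187 (160 to 218) in fl/fl. Oasl2 was at 139 (119 to 162) and 80.2 (62.3 to 102) CPM at a sum of 7 to 11, but at 138 (116 to 164) and 177 (151 to 207) CPM at 12 or more, where the intervals overlap.

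**Figure D3:**
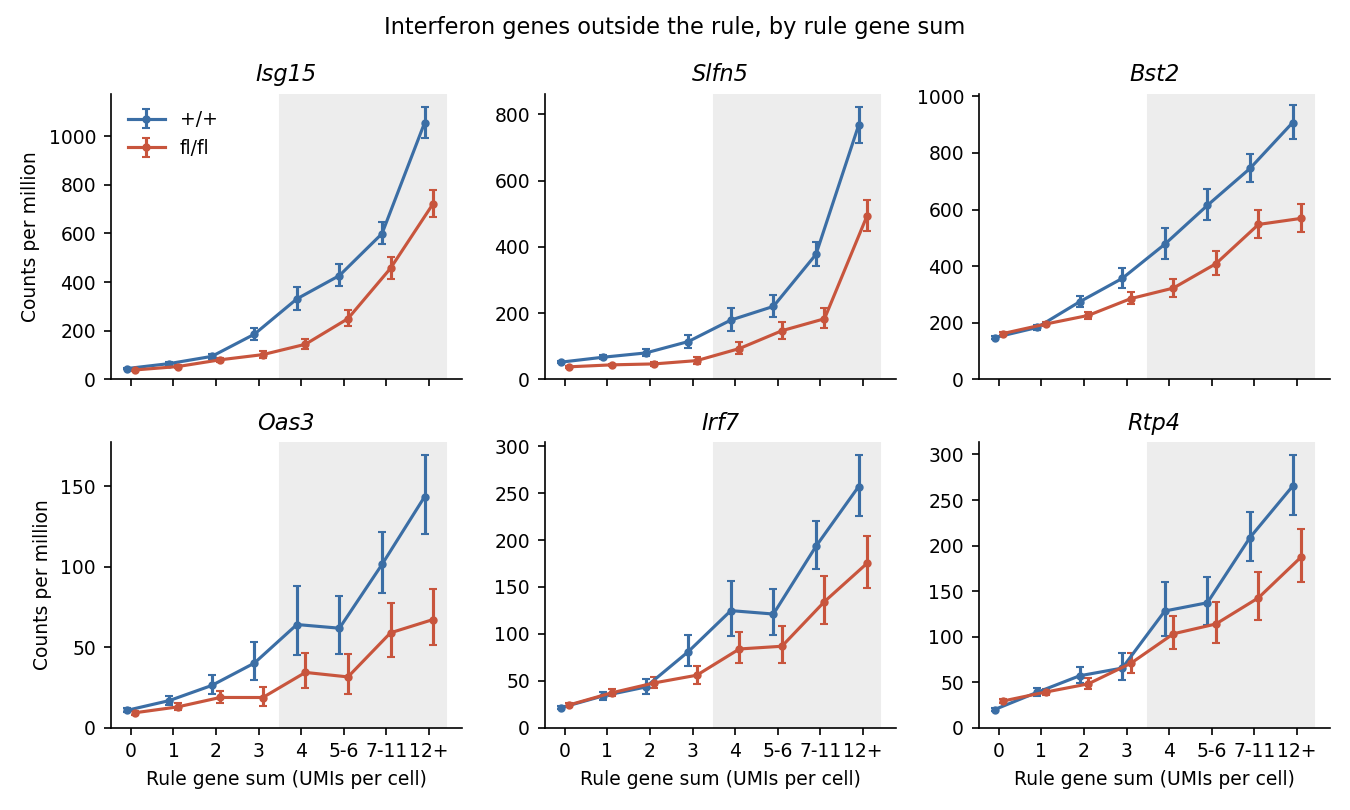
CPM of 6 interferon genes outside the rule (y axis) in T cells binned by rule gene sum (x axis), for +/+ (blue) and fl/fl (red); bars are 95% exact Poisson intervals and grey shading marks interferon-responding cells. At a sum of 12 or more Isg15 is at 1054 CPM in +/+ and 722 in fl/fl, whereas Rtp4 is higher in fl/fl at a sum of 0 (29.4 against 20.04) and lower at 12 or more (187 against 265).

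Cells of a given sum were deeper in fl/fl. At a sum of 4 the median depth was 7482 UMIs in 148 fl/fl cells and 5675 in 84 +/+ cells, and at 12 or more 7213 in 96 and 6869 in 120. The same raw sum is thus a smaller share of a fl/fl cell. With gate and counts both taken after thinning to 2500 UMIs, the log2 ratio was -0.90 for Isg15, -0.94 for Slfn5, -0.80 for Bst2, -1.12 for Oas3 and -0.45 for Irf7. By list, 23 of 26 measured antiviral effectors were below 0 at a sum of 4 (median -0.58), 27 of 28 at 7 to 11 (-0.47) and 26 of 29 at 12 or more (-0.46). Outside the gate it was 18 of 23 at a sum of 3 (-0.19) and at 2 (-0.15), 9 of 20 at 1 (0.02) and 6 of 18 at 0 (0.08). Most effectors were therefore below 0 already in cells just short of the gate. The GTPases had medians of 0.28, 0.24, 0.18 and 0.33 at sums of 0 to 3, of 0.04 at 4, -0.07 at 5 to 6, -0.0042 at 7 to 11 and -0.21 at 12 or more. Their median was thus also lower inside the gate than outside it. Without the cells rich in other-cell genes it was -0.05 at a sum of 4 and 0.05 at 12 or more (8 of 17 below 0), so both signs turned.

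Spread over single cells was wide in both libraries. Isg15 ranged from 0 to 43 UMIs per interferon-responding cell in +/+ with a median of 3, and from 0 to 27 in fl/fl with a median of 2. It was at 0 in 53 of 459 +/+ and 132 of 457 fl/fl cells. After thinning, 142 of 457 and 240 of 457 cells were at 0, and the medians were 1 and 0. Ifi27l2a, a small interferon-induced protein gene, was found in nearly every cell, with a median of 18 UMIs in +/+ and 13 in fl/fl, and summed to 3200 and 2272 CPM (-0.49). For both genes the cells' ranges overlapped, and the +/+ range reached higher (43 and 216 UMIs, against 27 and 137 in fl/fl). Cells of a library are not replicates of a genotype.

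T cell classes were set by UMI gates on genes the rule did not use. Treg-gated cells (a Foxp3 UMI or at least 2 of Ikzf2, and fewer than 2 of Cd8a and Cd8b1) made up 67.5% (63.0 to 71.8) of +/+ and 69.4% (64.9 to 73.6) of fl/fl interferon-responding cells. Other CD4 cells (a Cd4 UMI and none of Foxp3, Ikzf2, Cd8a or Cd8b1) made up 13.5% and 10.1%, CD8 cells 5.66% and 7.88%, and unassigned cells 13.3% and 12.7%. A Foxp3 or Ikzf2 UMI can be missed at this depth, so other CD4 and unassigned cells can include Treg cells. The sort was for CD4+FoxP3+ cells. Responding cells were found in every class. They were 7.07% of Treg-gated cells in +/+ and 7.43% in fl/fl, 7.94% and 6.22% of other CD4, 7.74% and 8.09% of CD8 and 6.21% and 5.58% of unassigned cells, with overlapping intervals. Treg-gated shares at a sum of at least 12 were 1.96% (1.57 to 2.42) and 1.29% (0.972 to 1.67), and CD8 shares 2.08% (0.842 to 4.25) and 2.92% (1.56 to 4.94).

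The genotype ratios were not alike across the classes. In Treg-gated interferon-responding cells (310 in +/+ and 317 in fl/fl) Isg15 was at 675 and 326 CPM, -1.05 (-1.17 to -0.93), Slfn5 at 399 and 173 CPM, -1.20 (-1.36 to -1.05), and Bst2 at 696 and 415 CPM, -0.74 (-0.85 to -0.64). In other CD4 interferon-responding cells (62 and 46) Isg15 was at 575 and 711 CPM, 0.31 (0.03 to 0.58), Slfn5 at 354 and 390 CPM, 0.14 (-0.22 to 0.50), and Bst2 at 749 and 583 CPM, -0.36 (-0.64 to -0.09). Unassigned cells (61 and 58) lay between for Isg15, -0.08 (-0.37 to 0.21). CD8 cells (26 and 36) were nearer to the Treg-gated cells, with -0.55 (-0.93 to -0.17) for Isg15 and -1.07 (-1.50 to -0.64) for Slfn5. Ifit3, a rule gene, was at -0.59 in Treg-gated and 0.74 in other CD4 cells.

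By list, all 27 measured antiviral effectors were below 0 in Treg-gated cells and 19 were called lower, with a median of -0.66, where 3.91% of all measured genes were called higher and 9.5% lower. In other CD4 cells 14 of 30 were below 0, 5 were called lower and 3 higher, with a median of 0.03, beside 4.1% lower and 5.16% higher of all genes. In CD8 cells 22 of 28 were below 0, 7 were called lower and 2 higher, with a median of -0.45, beside 5.7% and 5.85%. Without the cells rich in other-cell genes, 2 of 29 were called lower and 2 higher in other CD4 cells, and 10 of 28 lower and none higher in CD8 cells (median -0.62). Feedback genes had medians of -0.93 in Treg-gated, 0.21 in other CD4 and -0.52 in CD8 cells, and GTPases -0.35, 0.82 and 0.10. The GTPase median in CD8 cells was -0.07 without the cells rich in other-cell genes, with 4 of 15 called lower and none higher. The difference between classes was not tested, and the small classes hold few cells. Treg-gated cells were deeper in fl/fl (median 7661 UMIs against 6352.5), while other CD4 cells were close (5976.5 and 5689). Cells rich in other-cell genes left out, Isg15 was at -1.04 in Treg-gated, 0.23 (-0.04 to 0.51, an interval that includes 0) in other CD4 and -0.70 in CD8 cells, and Ifi44 in CD8 cells turned from 0.28 to -1.11.

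**Figure D4:**
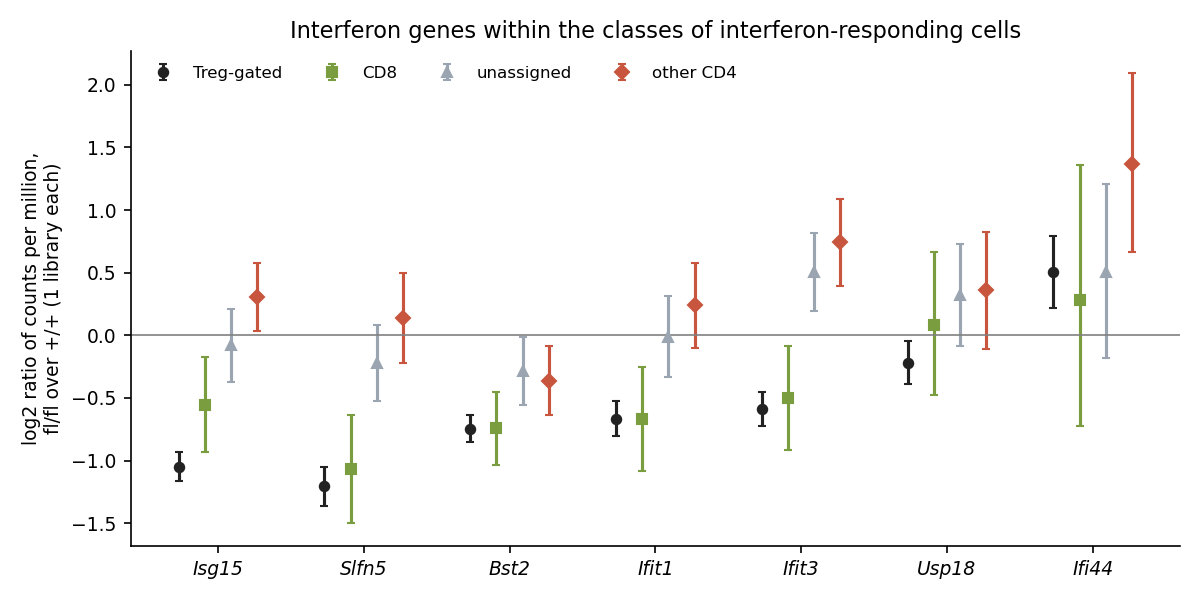
Log2 ratio of CPM, fl/fl over +/+ (y axis), of 7 interferon genes in the interferon-responding cells of each T cell class; bars are 95% exact binomial intervals for counting error. Isg15 is at -1.05 in Treg-gated and 0.31 in other CD4 cells, Slfn5 at -1.20 and 0.14, and Ifi44 is above 0 in all 4 classes with all cells kept (in CD8 cells -1.11 without cells rich in other-cell genes).

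The ratio itself was compared between interferon-responding and other T cells. Of 6074 genes, 41 (0.675%) had a log2 ratio higher by at least 1 in interferon-responding cells and 24 (0.395%) a ratio lower by at least 1, with an interval of the difference excluding 0. Without the cells rich in other-cell genes these were 6 and 19 of 5988. The 19 included Cmpk2 (-1.63), Ifitm3 (-1.64), Ifi208 (-1.42), Phf11a (-1.32), Oasl1 (-1.27), Rtp4 (-1.06) and Oas2 (-1.03) among interferon genes. They also included Nav2 (-1.59), Gpm6b (-1.45) and Tshz2 (-1.41), which are on none of the interferon lists. Xcl1, a chemokine gene of activated T cells, was among the 6 (1.28).

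Many differences were shared with the other T cells. Apobec3, which encodes a cytidine deaminase that mutates retroviral DNA, was at 218 and 27.8 CPM among the responders (-2.97), and other T cells had 150 and 20.5 CPM (-2.86). It was the lowest of the 27 antiviral effectors, and the ratio was close in cells without the response. Ryr2, a calcium channel, was at 24.3 and 2.83 CPM (-3.11, and -3.16 in other T cells). Ly6c1, a surface protein raised by interferon, was at 144 and 37.5 CPM (-1.94, and -1.04), with its neighbour Ly6c2 at 123 and 152 CPM (0.31). Without the cells rich in other-cell genes, high ratios were those of Pard3b, a polarity protein (4.11, at 3.96 and 48.6 CPM with them), Tspoap1 (3.41), Xcl1 (1.90), Plac8 (1.89) and Gzmb, granzyme B (1.88). Pard3b was as much higher in other T cells (3.73), and Plac8 more so (2.47).

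Treg identity genes were called in both directions. Of 17 measured Treg identity genes, 5 were called lower (Nrp1 -1.59, Entpd1 -1.51, Tnfrsf4 -1.22, Capg -0.93 and Tnfrsf18 -0.68), beside 6.02% of all genes. Called higher were 2 (Socs2 1.23 and Lrrc32 1.10), beside 2.86% of all genes. The same 5 and Foxp3 were called lower, and Socs2 higher, in other T cells, beside 5.3% and 1.21% of all genes there. The list median was -0.0040 in interferon-responding and -0.52 in other T cells. With the gate on thinned cells these medians were -0.36 and -0.61, and within Treg-gated cells 0.07 and -0.49. Treg-gated cells were 68.4% of other T cells in +/+ and 61.9% in fl/fl. Nrp1, the semaphorin receptor of thymic Treg cells, was at 147 and 48.8 CPM, and Entpd1, the ectonucleotidase CD39, at 26.3 and 9.25 CPM. Foxp3 was at 24.9 (19.97 to 30.7) and 18.8 (14.7 to 23.6) CPM, -0.41 (-0.88 to 0.06). Ikzf2 was at 1415 and 1722 CPM (0.28), and in other T cells at 1539 and 1430 CPM (-0.11). P2rx7, a receptor for extracellular ATP, was at 69.0 and 38.5 CPM (-0.84), with other T cells at 59.6 and 38.5 CPM (-0.63). Effector Treg genes went both ways, with Lgals1 (252 and 69.6 CPM, -1.86), S100a4 (-1.01), Pdcd1 (-0.94) and Batf (-0.71) lower and Gzmb (18.7 and 77.9 CPM, 2.06) and Irf4 (0.78) higher.

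Most genes of resting cells were above 0 in both populations. Of 13, 11 were above 0 in each, and the median was 0.46, against 0.42 in other T cells. In interferon-responding cells 1 was called higher (Igfbp4, 58.0 and 116 CPM, 1.00), beside 2.86% of all genes. In Treg-gated cells (defined above) 8 of the 13 were called higher, beside 3.91% of all genes, with medians of 0.66 in interferon-responding and 0.63 in other cells. Bach2 (630 and 937 CPM, 0.57), which restrains effector programmes, and Lef1 (480 and 696 CPM, 0.54) were just short of the fold. Cycling cells, with at least 2 UMIs of Mki67 and Top2a, were 5.45% (3.56 to 7.94) and 8.10% (5.76 to 10.99), or 1.97% and 2.84% after thinning, with overlapping intervals.

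Few cells held most counts of the genes with the largest ratios over all interferon-responding cells. In +/+, 5 cells held 99.2% of the 8837 counts of 6 neutrophil genes (S100a8 and S100a9 among them), and 388 of 459 cells were at 0. In fl/fl, all 2963 counts of 3 erythroid genes were in 5 cells, 2 of them with 10 or more, and 5 cells held 85.3% of 3873 MHC class II counts. Neutrophil genes such as Ngp (164 and 0.514 CPM), Camp, Lcn2 and S100a9 (1151 and 69.9 CPM) were among the 10 lowest ratios, and Hba-a2 (0.849 and 163 CPM) and Hbb-bs (3.11 and 561 CPM) among the 10 highest. Cells rich in other-cell genes were chosen by their counts of neutrophil, monocyte, MHC class II and erythroid genes. Values of such genes without those cells therefore describe the choice and check nothing. Without those cells S100a9 was at -0.95 instead of -4.04 and Hbb-bs at -0.11 instead of 7.49. The summed neutrophil list was then at 20.4 and 8.34 CPM, with 3 of 8 genes at 0 in each library. The monocyte and macrophage list was at 14.1 and 6.40 CPM, with 1 of 9 and 2 of 9 genes at 0. The dendritic cell list was at 738 and 467 CPM without them, and Bst2 was its only measured gene, with 4 of 9 and 1 of 9 genes at 0. Of the interferon genes named above, Isg15 (-0.79), Slfn5 (-0.99), Bst2 (-0.67) and Oas3 (-1.09) were as low without them.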

How the data were processed

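Both libraries were deposited as matrices of raw UMI counts per gene and cell, with 31253 genes. Per the submitters' processing notes, fastp, Cell Ranger 7.1.0, Seurat 4.1.1 and mm10 (GRCm38) were used. The cell filters behind the deposited barcodes and the handling of doublets are not given in the sources used here. Gene coordinates came from GENCODE for GRCm38 (31107 gene identifiers matched) and promoter windows from RefSeq.

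For each population the counts were added up within a library and expressed as CPM. Ratios carry exact conditional binomial intervals, levels exact Poisson intervals and shares exact Clopper-Pearson intervals. They cover counting error only, since there is 1 library per genotype and the spread between mice was not measured. The interferon-responding cells gave 3534482 counts in +/+ and 3891602 in fl/fl, so 3 counts were 0.849 and 0.771 CPM. Differences of log2 ratios used a normal interval. Cells were thinned to 2500 UMIs by random draws without replacement, and the thinned gate was a rule gene sum of at least 2 and a Cd3 sum of at least 1. Python 3.11.15, numpy 2.4.6, scipy 1.17.1, pandas 2.3.3 and scanpy 1.11.5 were used, and the steps were tested on simulated data. Scrublet in scanpy (expected rate 6%, Otsu threshold, since the automatic one marked 0.0385% and 1.48%) called 203 (2.61%) +/+ and 254 (2.94%) fl/fl cells, of which 16 and 14 were interferon-responding. They were kept, and left out as an alternative.

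The interferon-responding cells and the 31 gene lists were chosen with earlier results of these data known. Genes were named by a rule: the rule genes, Kmt2d, Foxp3 and P2rx7, the 10 highest and 10 lowest ratios between libraries, the 15 highest and 10 lowest between interferon-responding and other T cells, and up to 4 genes each way per list. Gm4951, B2m, Ifi27l2a, Ifi35, Ikzf2, Lef1, Tnfrsf18, Tor3a, Xaf1, Cd4 and Mki67 fall outside it and were chosen after their values were seen. Leaving out cells rich in other-cell genes, the thinned gate for gene comparisons, the sum of at least 12, and the splits of lists by class and by rule gene sum were also chosen after seeing the data. A few genes are not reported here.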

Additional observations from a re-analysis of the deposited data

Results flagged for a closer look

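Some genes had ratios on opposite sides of 1.5-fold in 2 groups of cells, and none of these differences was tested across mice. Gzma, granzyme A, had a log2 ratio of fl/fl over +/+ of -1.19 in interferon-responding cells and 1.33 in other T cells. It was at -0.99 in interferon-responding cells without the cells rich in other-cell genes, but at 0.68 without called doublets and 0.69 with the gate on thinned cells. The MHC class II genes H2-Eb1 (2.57 against -1.06), H2-Ab1 (2.14 against -1.32) and H2-Aa (1.87 against -0.90) also lay on opposite sides. Without the cells rich in other-cell genes they were at 1.47, 0.63 and 1.38 in interferon-responding cells. MHC class II genes were among those that chose the cells left out, so these values describe the choice. Cst3 was at 1.41 against -0.80, and at -0.16 without those cells. The ratios of other T cells given here keep all cells. Whether the signs stay opposite with such cells left out of both groups is therefore not shown. Among T cell classes, Ifit3 was at -0.59 in Treg-gated and 0.74 in other CD4 interferon-responding cells, and at -0.59 and 0.62 without those cells.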

How the results depend on the processing

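With 1 library per genotype, no value here measures the spread between mice. No paired analysis was possible because each genotype has 1 library. Among 105 alternatives of the main comparisons, 58 stayed within their bounds and 47 moved. Where values moved the cause was not tested. The share of interferon-responding T cells (+/+ and fl/fl) was 9.28% and 11.4% at a rule gene sum of at least 3 (log2 ratio 0.30), 4.84% and 3.70% at 6 (-0.39) and 1.85% and 1.48% at 12 (-0.32). It was 5.23% and 5.19% without Ifit1 in the sum, 5.37% and 5.02% without Ifit3, and 5.91% and 4.85% without Usp18 (-0.28). In fl/fl it was 6.11% without Ifi44 and 7.77% with the thinned gate. That gate put 55.7% of +/+ interferon-responding cells in the Treg gate, 9.32% in other CD4, 2.69% in CD8 and 32.3% in none, and 52.8%, 4.42% and 33.9% of fl/fl cells in Treg, CD8 and none.

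Genes called higher and lower in fl/fl were 319 and 570 with a floor of 10 CPM, 67 and 160 with 50 CPM, and 68 and 94 at 2-fold. In Treg-gated cells 240 were higher and 583 lower, and at a sum of at least 12, 484 were higher and 390 lower, so that more genes were higher than lower there. Genes whose ratio differed from other T cells (higher and lower) were 16 and 13 at 50 CPM, 138 and 112 at 1.5-fold and 80 and 58 with thinned cells, and 6 were higher without cells rich in other-cell genes. Genes lower in interferon-responding than in other T cells were 0 with median scaling, 14 at 1.5-fold (170 higher), 3 at a sum of at least 6, 5 with thinned cells, 4 without called doublets and 5 without cells rich in other-cell genes.

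Of 120 list medians 3 were counted as changing sign. Sign changes of medians that were small in the main setting were not counted, such as receptors and kinases (0.03, and -0.15 with the thinned gate). The 3 counted were as follows. In Treg-gated cells the interferon ligands were at -0.10 (1 gene, Ifng) and CD8 genes at -0.12, and with the thinned gate monocyte and macrophage genes were at -1.01. Of 1066 values of named genes, 9 were sign changes of genes called higher or lower. Sign changes of genes not called were not counted. Gzma was at 0.12 at a sum of at least 6, 0.68 without called doublets and 0.69 with the thinned gate. Cst3 was at -0.16 and Hbb-bs at -0.11 without cells rich in other-cell genes, and Cst3 at -0.32 with the thinned gate. Erythroid genes were among those that chose the cells left out, so this value of Hbb-bs describes the choice. Socs3 was at 0.031 with the thinned gate, and S100a8 at 6.87 and S100a9 at 5.14 at a sum of at least 12.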
